A study of Caenorhabditis elegans with 2 samples.

Results

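Vulval induction in Caenorhabditis elegans is run by a short chain of conserved signalling proteins, and the BLMP-1 peaks around 10 genes of that chain are described here. The genes form a list by name, with no measured value in the rule, but the list was drawn up with earlier results of these data known. They are lin-3, let-23, sem-5, let-60, lin-45, mpk-1, lin-1, lin-31, lin-12 and apx-1. All 10 names found a gene in the annotation, out of 19973 nuclear protein-coding genes in all. The anchor cell of the gonad secretes the EGF-like ligand LIN-3, which activates its receptor on the vulval precursor cells of the epidermis. A Ras and MAP kinase cascade then carries the signal to transcription factors in the nucleus, while Notch signalling between neighbouring precursors assigns the fate next to the induced cell. Induction takes place after the L2 stage in normal development, and the precursors are a small set of cells in the animal.

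BLMP-1 is a zinc finger transcription factor related to mammalian PRDM1 and is known for roles in the epidermis and in developmental timing. Its binding was mapped by ChIP-seq, in which DNA bound by a protein is pulled down and sequenced, on sonicated chromatin from whole hermaphrodites at the L2 larval stage. The only group was strain OP109, which has the unc-119(ed3) mutation on chromosome III and the transgene wgIs109, whose product is BLMP-1 with a GFP-FLAG tag at its C-terminal end. The labels list 2 biological replicates, numbered 2 and 3, with unknown age and no other strain, stage or treatment, and the antibody field names blmp-1. What drives the transgene is not stated in the labels. Whole worms were used, so binding in few cells and weak binding in many cells cannot be told apart, and no label separates the vulval precursors from other cells.

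The deposited lists on the ce11 build hold 3031 nuclear peaks after the authors' reproducibility threshold, 29970 in the relaxed list of the pooled replicates, 19523 in that of replicate 2 and 25112 in that of replicate 3. A relaxed list holds background as well as peaks. A peak's summit is its point of highest enrichment as the authors placed it. Every signal given below is the authors' own value for a peak, on a scale not stated in the labels or files, and it is set against other peaks of the same list. The thresholded peaks were the nuclear peaks of highest pooled signal. Their lowest signal was 27.08, and the next weaker pooled peak in the genome had 27.06. The lists hold no read counts, so the depth behind each peak is unknown.

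A gene was given a window from 10000 bp upstream of its annotated start to its end. In the thresholded list, 3 of the 10 genes held a summit in that window, let-60, lin-45 and mpk-1, with 5 summits among them. Of all protein-coding genes, 27.2% did. The windows of the vulval genes were longer than usual, with a median of 19582 bp against 12026 bp for all genes. Among all genes with windows within the range of theirs (12271 to 34426 bp), not matched further for length, 32.3% held a summit. The count of 3 in 10 is near both of these shares. With only 5000 bp upstream, 1 of the 10 genes (let-60) held a summit, against 19.2% of all genes. The mean number of thresholded summits per 10000 bp of window was 0.312 for the 10 genes and 0.308 for all genes.

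None of the 5 summits lay inside one of the vulval genes or in its promoter window, here 1000 bp upstream to 200 bp downstream of a transcript start. The count of genes with a promoter summit was 0 of 10, against 8.85% of all protein-coding genes. When each summit was given to the gene with the nearest transcript start, 0 of the 10 received any, against 11.3% of all genes. With 10 genes, a count of 0 cannot be set apart from such shares. Each of the 5 summits lay in 2 to 4 overlapping gene windows, so the lists do not tie it to a single gene. All 5 had a summit within 100 bp in both replicates (5 of 5), as did 92.6% of all nuclear thresholded summits. Their median signal was 78.2, and that of the thresholded list was 44.3.

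Sequences are shown for the 4 thresholded peaks that lie outside genes and for the strongest intronic peaks of lin-1 and mpk-1, which had the highest signals below the threshold. The peak of 126 in dpy-20 and the summits at the starts of lin-45 and let-60 overlap UTRs and are not shown. Those upstream of lin-45 and mpk-1 lie 8055 to 9799 bp from these genes. Each run is the summit base with 50 bases on either side, on the plus strand of ce11, from the RefSeq genome of the same assembly. Capitals mark GAGAGA on either strand (TCTCTC in the other direction). That word was absent within 50 bases of the summit in dpy-20 and of those at the starts of lin-45 and let-60.
let-60 upstream, chrIV:11692573-11692673, signal 78.2: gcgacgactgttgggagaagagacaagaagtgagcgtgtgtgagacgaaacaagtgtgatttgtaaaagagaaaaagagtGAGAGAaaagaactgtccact
mpk-1 upstream, chrIII:4236357-4236457, signal 58.1: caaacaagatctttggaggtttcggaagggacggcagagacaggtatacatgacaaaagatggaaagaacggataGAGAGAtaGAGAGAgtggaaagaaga
mpk-1 upstream, chrIII:4237857-4237957, signal 111.6: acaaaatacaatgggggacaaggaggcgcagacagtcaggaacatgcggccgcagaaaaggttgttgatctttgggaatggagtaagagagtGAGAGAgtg
lin-45 upstream and usp-4 promoter, chrIV:6756577-6756677, signal 35.3: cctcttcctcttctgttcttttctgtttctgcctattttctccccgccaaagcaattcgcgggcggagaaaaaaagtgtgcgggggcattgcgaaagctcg
lin-1 intron, chrIV:2281514-2281614, signal 24.7: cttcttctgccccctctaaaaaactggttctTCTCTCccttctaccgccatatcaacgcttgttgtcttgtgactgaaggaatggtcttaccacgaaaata
mpk-1 intron, chrIII:4223680-4223780, signal 24.2: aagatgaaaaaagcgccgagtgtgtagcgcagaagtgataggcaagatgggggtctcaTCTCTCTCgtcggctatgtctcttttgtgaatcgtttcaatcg

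The core of the mammalian PRDM1 consensus was searched as AGTGAAAG or AGCGAAAG, on both strands, wholly within 50 bp of a summit. None of the 5 thresholded summits held it, against 7.09% of all nuclear thresholded summits, and none of the 68 pooled summits in the windows did, against 1.75%. In the replicate lists 1 of the 49 summits of replicate 2 held it, against 2.10% of all nuclear summits in that list, and 1 of the 52 of replicate 3, against 1.94%. That of replicate 2 was the summit of 59.5 in dpy-20, in the window of let-60, and that of replicate 3 was a summit of 2.31 in an intron of mpk-1. The shorter word GTGAAA, contained in AGTGAAAG but also found without it, was at 0 of the 5, against 21.8%, and at 9 of the 68 pooled summits (13.2%), against 12.7%. The repeat GAGAGA was chosen after these sequences were seen. It was at 3 of the 5 thresholded summits, against 29.7%, and at 12 of the 68 pooled summits (17.6%), against 12.3%. A match is a description of the letters only, and no match says only that these letters are not in the window. The summit windows had a median of 43.6% G and C in the 5 peaks and 43.6% in all thresholded peaks.

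Below the threshold, the pooled relaxed list gave 68 summits in the windows, 63 of them sub-threshold, and 10 of the 10 genes held at least 1, against 75.3% of all genes. In replicate 2, 9 of 10 genes held a summit (76.6% of all genes) and in replicate 3, 9 of 10 did (78.7%). These shares of all genes were not matched for window length, and the windows of the 10 genes were longer than usual. The gene without a summit was lin-31 in both. The sub-threshold summits were mostly weak. Of the 63, 9 had a signal above 10 (14.3%), against 23.1% of all sub-threshold pooled summits. A summit within 100 bp in both replicates was found for 8 of the 63 (12.7%), against 14.6%, and for 13 of all 68 (19.1%), against 22.4%. None of the 63 held the PRDM1 core, against 1.15%. The shares for matching and for the core were near those of the genome, and the 63 summits are part of the 68.

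In the pooled list 5 of 10 genes had a promoter summit (sem-5, let-60, lin-45, mpk-1 and lin-1), against 40.8% of all genes. By the nearest start, 6 of 10 received a summit, those 5 and lin-12, against 52.0%. Of the 68 summits, 28 had a vulval gene as the nearest start. By place, 32 lay in introns, 10 in coding exons, 7 in UTRs and 19 outside protein-coding genes, where the genes counted include neighbours in the window. No share over all pooled summits is given for place or for these 28. The counts describe the windows and are not set against the genome.

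**Figure D1:**
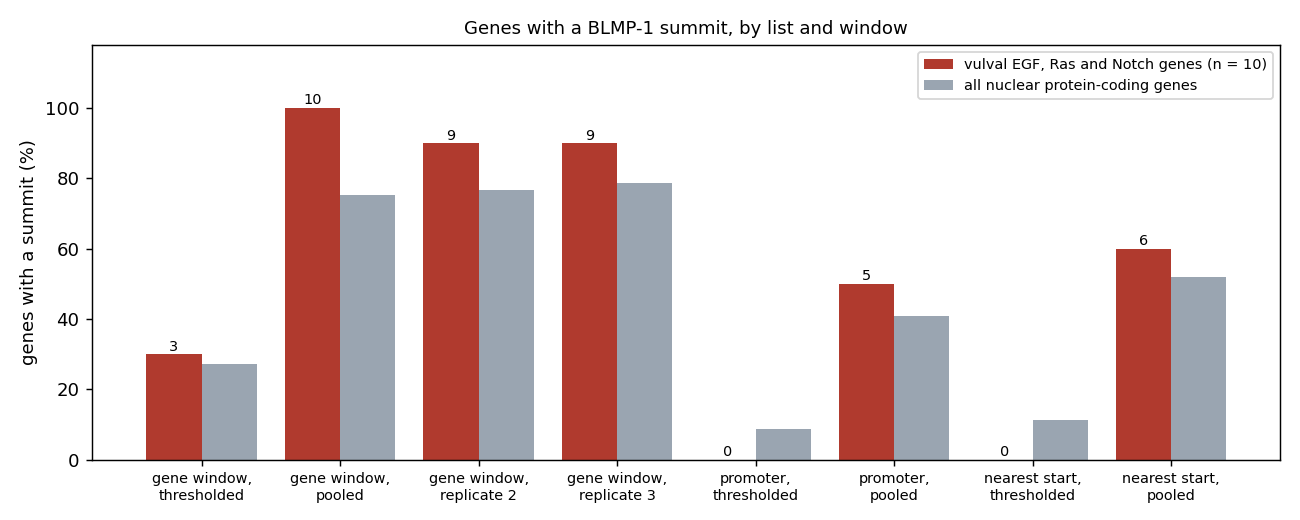
Share of genes (%) with a BLMP-1 summit, by list and window, for the 10 vulval genes (red bars, with their count above) and all nuclear protein-coding genes (grey bars). In the thresholded list 3 of 10 held a summit in the gene window, against 27.2% of all genes, and 0 of 10 held one in the promoter window, against 8.85%.

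The ligand gene lin-3 encodes the EGF-like signal of the anchor cell, and no thresholded summit lay in its window on chromosome IV (gene 11054308 to 11063768, plus strand). The pooled list had 2 summits there, of 4.96 and 4.45, at 8272 and 6930 bp upstream and both inside the neighbouring gene kdin-1. Replicate 2 had 1 summit, of 3.45, and replicate 3 had 6, of 2.47 to 5.29. Of the 6, 3 lay within lin-3, with signals of 3.77 in an intron and of 5.29 and 4.85 in a UTR near the start of ttr-16. The replicate 2 list had none within the gene, and neither pooled summit was matched in both replicates.

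The receptor gene let-23, which encodes the EGF receptor (chromosome II, 9197512 to 9207213, plus strand), had 4 pooled summits of 13.3, 8.39, 11.9 and 7.80. They lay 7006 to 9133 bp upstream, all inside the potassium channel gene twk-4, and 2 of them, 11.9 and 7.80, were matched in both replicates. Their matches had signals of 8.56 and 4.36 in replicate 2. In replicate 3 they had only 2.11 and 3.15, in a list whose weakest nuclear signal was 2.00. The strongest pooled summit, at 9188379, lay in the promoter window of sym-2. Replicate 2 had a summit at the same base with a signal of 11.1, while the nearest summit of replicate 3 was 1267 bp away with 3.31. Close to let-23 the replicates had different sites. Replicate 2 had a summit of 4.64 in a coding exon, 192 bp from an internal start, and replicate 3 had one of 4.56 at 1155 bp upstream.

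The adaptor gene sem-5 encodes the GRB2-like link between receptor and Ras (chromosome X, 7959453 to 7961723, minus strand), and no other protein-coding gene touched its window. A pooled summit of 13.0 lay 767 bp upstream of its start, in the promoter window. Replicate 2 had a summit of 14.7 (rank 2151) at 721 bp upstream and another of 7.96 at 927 bp. In replicate 3 the nearest summit was 3668 bp away, and the single summit inside the window, of 9.50, lay 5038 bp upstream. Replicate 2 had a summit of 3.72 there, 283 bp from it. The promoter summit of sem-5 was therefore in the list of replicate 2 and not in that of replicate 3, whose weakest nuclear signal was 2.00. The other pooled summit in the window, of 2.96, lay 3019 bp upstream. Replicate 2 had 4.89 at 36 bp from it, and the nearest summit of replicate 3 was 2019 bp away.

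Ras, the switch of the cascade, is encoded by let-60, and its window on chromosome IV (gene 11688227 to 11691088, minus strand) held the strongest peak among the 10 genes. The summit nearer to it lay at 11692623, 1535 bp upstream of its start, with a signal of 78.2 and rank 532 of the nuclear thresholded peaks. It was outside all protein-coding genes, and the nearest start, at 1170 bp, was that of ZK792.12. A summit lay 33 bp away in replicate 2 with a signal of 36.1, and 16 bp away in replicate 3 with a signal of 43.5. The peak was thus present in both replicates, at rank 453 in replicate 2 and rank 655 in replicate 3.

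The other summit in the window of let-60, at 11700367, had a signal of 126 and rank 188, the highest of the 5. It lay 9279 bp upstream of let-60 and inside a UTR of dpy-20, a gene needed for normal body shape, 485 bp from the start of dpy-20. Replicate 3 had a summit at the same base with a signal of 76.9. Replicate 2 had a weak summit 77 bp away with a signal of 9.42, and a stronger one of 59.5 within 200 bp. This peak, too, was thus in both lists, with summits that differ in position by up to 123 bp between the replicates.

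Weaker pooled summits lay within let-60 and at its start. That at 11691105, 17 bp upstream of the start, had a signal of 13.9, with 5.65 in replicate 3 at 15 bp, while the nearest summit of replicate 2 was 211 bp away with 4.35. Inside the gene the pooled signals were 5.36, 4.61 and 5.72. The pooled window of let-60 held 15 summits, 11.7 per 10000 bp, the highest density of the 10 genes, against a median of 2.44 for all genes. Of these 15, only 3 lay within let-60, and let-60 had the nearest start for only 3. The density is thus that of a window shared with neighbouring genes. The pooled median over the 10 genes was 1.96 and the mean 3.64, against a mean of 3.01 for all genes. In the pooled list more of the 10 thus lay below the genome-wide median than above it. The replicate lists went the other way. Their medians were 2.42 against 1.55 for all genes in replicate 2, and 2.26 against 1.90 in replicate 3.

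The kinase Raf, which Ras activates, is encoded by lin-45 (chromosome IV, 6742537 to 6748572, minus strand). Its single thresholded summit, at 6756627, was the weakest of the 5, with a signal of 35.3 and rank 2106. It lay 8055 bp upstream of lin-45 and 684 bp from the start of usp-4, in the promoter window of usp-4. Replicate 2 had 13.7 at 28 bp and replicate 3 had 21.0 at 5 bp. In the gene itself a pooled summit of 19.5 (rank 4524) lay at 6747790, 10 bp upstream of an internal transcript start and 782 bp downstream of the outermost start. Replicate 2 had 6.87 at 1 bp and replicate 3 had 6.88 at 39 bp. It was the strongest pooled summit in the promoter windows of any of the 10 genes. A weaker one, of 4.38 at 303 bp upstream, was matched by 4.04 in replicate 3 and by no replicate 2 summit within 100 bp.

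At the end of the cascade stands the ERK-type MAP kinase encoded by mpk-1 on chromosome III (4216763 to 4228108, minus strand). Its window held a pair of strong summits far upstream, at 4236407 and 4237907, which are 8299 and 9799 bp from its start. The signals were 58.1 (rank 964) and 111.6 (rank 248). Both lay outside protein-coding genes and outside every promoter window, beyond F43C1.5 and the nuclear receptor gene nhr-20, which stand between them and mpk-1. The nearest start was that of nhr-20 for the first, at 3188 bp, and that of F43C1.7 for the other, at 4668 bp. At the first, replicate 2 gave 27.7 and replicate 3 gave 38, within 50 bp. At the other, replicate 2 gave 44.1 and replicate 3 gave 66.6, within 15 bp, so both peaks were found in both replicates.

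In mpk-1, the strongest summit within the gene lay at 4223730, in the first intron of the longest transcript, which is 8247 bp long. Its pooled signal was 24.2 (rank 3490). Replicate 2 had 10.1 at 1 bp and replicate 3 had 13.0 at 45 bp, so the site was present in both. It lay 4378 bp downstream of the outermost start and 4087 bp upstream of the start of the shorter transcripts. The pooled window of mpk-1 held 17 summits, the most of any of the genes, 8 of them within the gene with signals of 2.78 to 24.2. Its promoter summit, 538 bp upstream and shared with F43C1.5, had only 3.29. A summit of 8.37 in a coding exon of nhr-20 had 9.74 at the same base in replicate 3, and the nearest in replicate 2 was 531 bp away.

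The ETS factor LIN-1, a nuclear target of MPK-1, is encoded by the longest of the 10 genes (24426 bp, chromosome IV, 2275861 to 2300286, minus strand). Its strongest summit, at 2281564, was in the second intron of the longest transcript, which spans 20948 bp. The pooled signal was 24.7 (rank 3404), and replicate 2 had 9.61 at 36 bp and replicate 3 had 9.39 at 22 bp. Of its 14 pooled summits 9 lay within the gene. In all 4 were matched in both replicates, this one, 7.20 at 2281764 and 8.74 at 2284656 in the same intron, and 16.2 at 2307977, in a UTR of the neighbouring gene vha-11. A further summit of that intron, 11.3 at 2289920, had 8.05 in replicate 2 at 92 bp while the nearest summit of replicate 3 was 925 bp away. Among the summits of the 10 genes below the threshold, that at 2281564 had the highest signal.

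The forkhead factor LIN-31 acts beside LIN-1 in the precursor cells. At lin-31 (chromosome II, 3982549 to 3987029, plus strand) the pooled list had 1 summit, of 3.25, in a coding exon and in the promoter window of K10G6.5, and neither replicate list had any. No other gene of the 10 lacked a summit in both replicate lists.

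Neither of the Notch genes among the 10, lin-12 and apx-1, had a thresholded summit in its window, against 27.2% of all protein-coding genes. So few genes cannot be set apart from that share. Of the 17 other Notch pathway genes listed below, 5 had one. The receptor gene lin-12 (chromosome III, 9060221 to 9071472, minus strand) had 4 pooled summits of 5.16, 2.61, 2.96 and 5.70, all within the gene and none matched in both replicates, though each of the last and the second had a summit within 50 bp in 1 of them, of 3.35 in replicate 2 and 2.84 in replicate 3. Replicate 2 had 5 summits in the window, the strongest of 5.67 at 732 bp upstream in the promoter window, and replicate 3 had 1.

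The gene apx-1 encodes a DSL-type ligand of Notch. Its window (chromosome V, 3210196 to 3223221, plus strand) had 1 pooled summit, of 5.90, at 9514 bp upstream and 259 bp from the start of K08D9.4. Replicate 2 had 3 summits of 2.93 to 3.21 and replicate 3 had 1 of 2.51, and the closest pair across the replicates was 2709 bp apart.

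**Figure D2:**
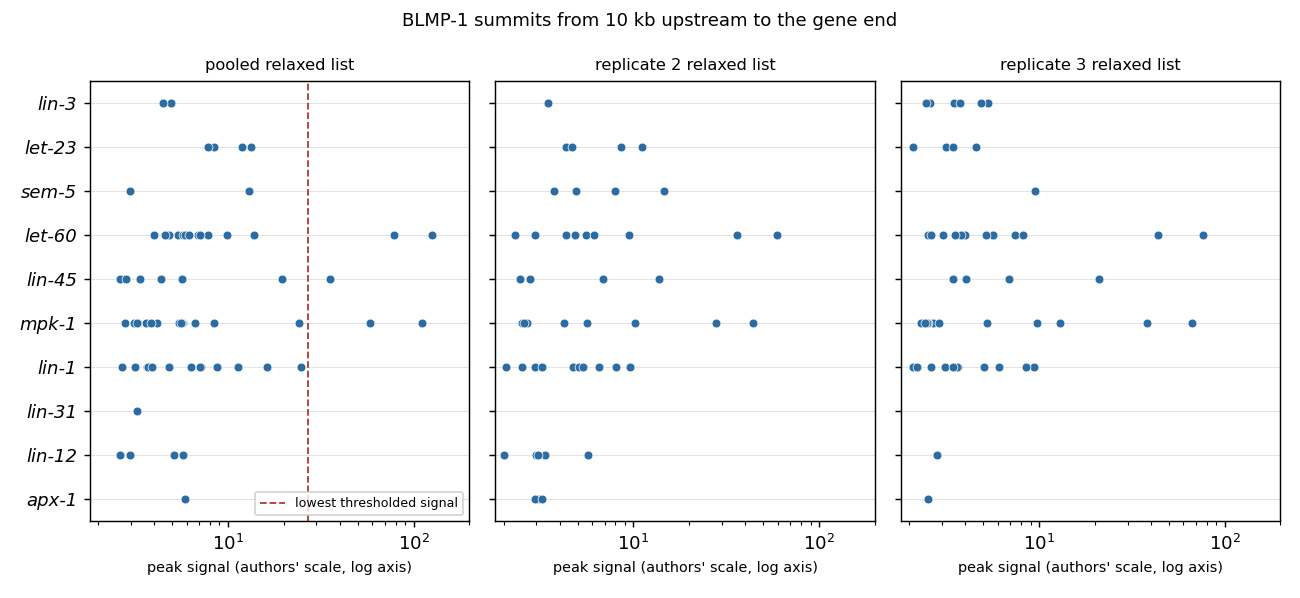
Signal of every summit (points) from 10 kb upstream to the gene end of each of the 10 genes, in the pooled list and in each replicate, on a log axis whose scale is the authors' own for each list. In the pooled list, points right of the dashed line at 27.08 are the thresholded summits, which are at let-60 (126 and 78.2), mpk-1 (111.6 and 58.1) and lin-45 (35.3), while lin-31 has a single point at 3.25 and none in either replicate.

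Ordered by their strongest pooled summit, the genes ran let-60, mpk-1, lin-45, lin-1, let-23, sem-5, apx-1, lin-12, lin-3 and lin-31. The neighbours let-23 and sem-5 (13.3 and 13.0), and apx-1 and lin-12 (5.90 and 5.70), differed by little, and let-23 was above sem-5 in the pooled list but below it in both replicates (11.1 against 14.7 in replicate 2, 4.56 against 9.50 in replicate 3). Over the 9 genes with a summit in the pooled list and in both replicate lists, the strongest signals in the replicates had a Spearman rho of 0.9. That value is over genes, whose strongest summits often lie in a neighbour, and not over independent samples. At lin-3, let-23, sem-5, lin-12 and apx-1 the strongest summits of the replicates were different sites. The value thus compares windows and does not show that the replicates share sites.

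**Figure D3:**
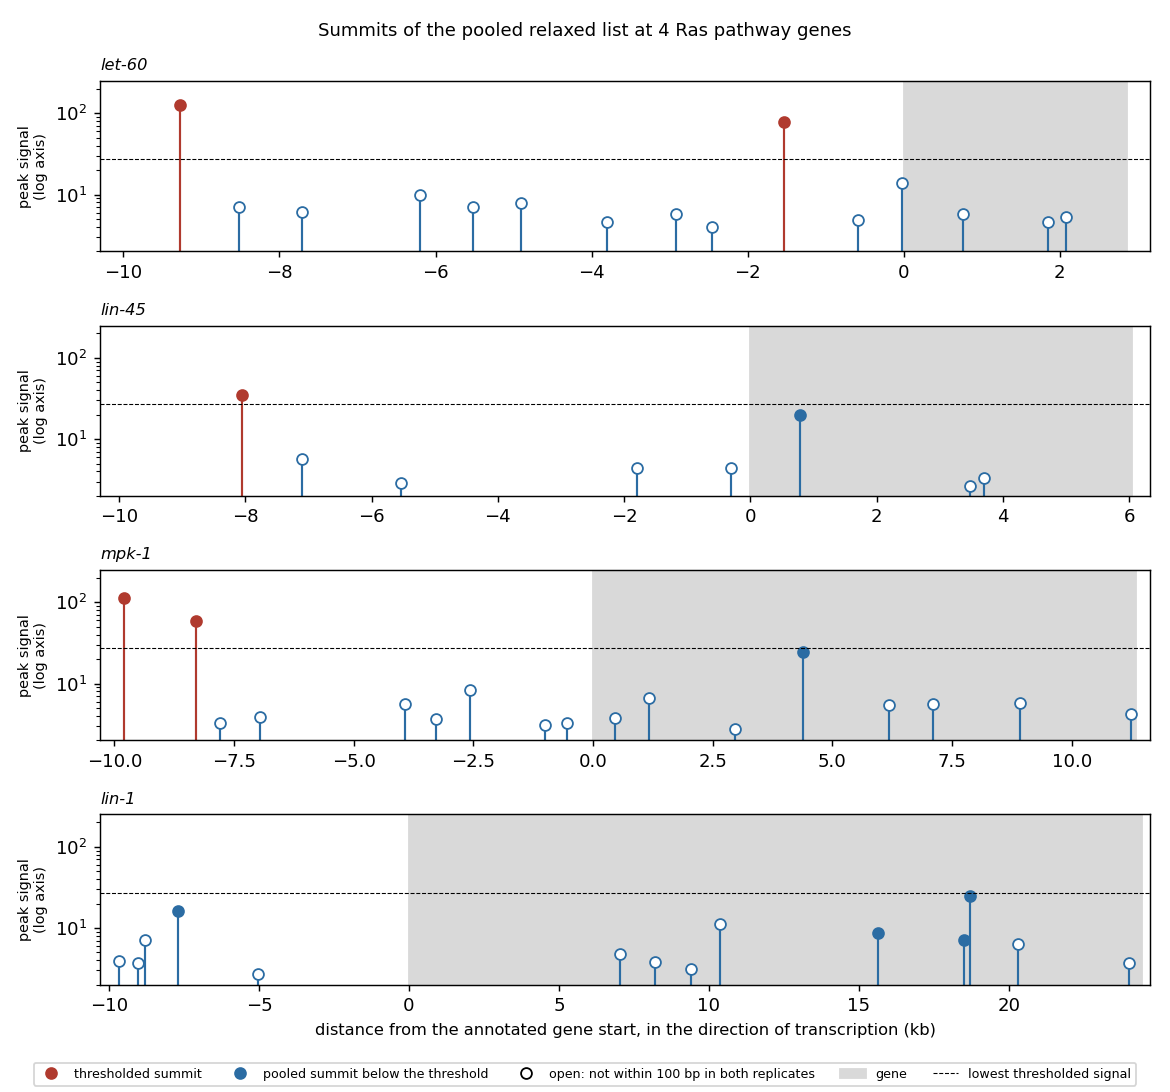
Pooled summits at let-60, lin-45, mpk-1 and lin-1 by distance from the annotated gene start (kb, in the direction of transcription) and peak signal (log axis), with the gene shaded grey. Red points are thresholded, blue ones are below the threshold, and filled points have a summit within 100 bp in both replicates. All 5 red points are upstream of the genes and filled, and the intronic points of mpk-1 (24.2) and lin-1 (24.7) are filled and lie just under the dashed line at 27.08.

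Among other genes of the same pathways, 71 in 5 lists drawn up with earlier results of these data known, 37 had a thresholded summit in the gene window (52.1%, against 27.2% of all genes) and 17 had one in the promoter window (23.9%, against 8.85%). Their windows had a median of 14658 bp. No test was made of these shares, so they are not called different from those of the 10 genes. Of the 16 EGF and Ras activators, 9 had a window summit and 4 a promoter summit, at the scaffold gene soc-2 (signal 73.4), eor-2 (39.4), the Raf scaffold gene ksr-2 (34.5) and lin-7, which helps to place the receptor (30.5, shared with Y54G11A.17 and elof-1). The promoter summits of soc-2 and ksr-2 lay in introns of these genes, in the promoter windows of internal transcript starts. The window summit of rom-1, a rhomboid-type protease gene of the LIN-3 signal, had 338 and lay outside genes, at 4899936 on chromosome III, upstream of the gene. Those of the exchange factor gene sos-1 (48.5), cdf-1 (39.7) and the scaffold gene ksr-1 (34.2) were weaker.

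Of the 12 EGF and Ras inhibitors, 8 had a window summit and 3 a promoter summit, at the receptor phosphatase gene dep-1 (62.8) and the Ras GTPase activator genes gap-3 (32.7) and gap-2 (28.1, with 124 elsewhere in its window). The promoter summit of gap-2 lay inside the gene, in the promoter window of an internal transcript start. Next came the window summits of lst-2 (87.7), unc-101 (47.1), the MAP kinase phosphatase gene lip-1 (39.4) and ark-1 (37.2). Of the 17 other Notch pathway genes, 5 had a window summit, the strongest in an intron of lag-1, which encodes the DNA-binding partner of Notch (140), then at the ADAM protease gene sup-17 (116) and sel-1 (87.7). The secreted co-ligand genes osm-11 (56.2) and osm-7 (54.9) had the promoter summits of that list.

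Of the 12 vulval outputs and partners, 5 had a window summit, including the nuclear receptor gene nhr-25 (258) and the Hox gene lin-39 (76.9) in their promoter windows. Both of these summits lay inside the gene, in the promoter window of an internal transcript start. The cell cycle inhibitor gene cki-1 (126), zmp-1 (79.4) and let-413 (27.9) had theirs elsewhere in the window. Of the 14 repressors of the synthetic multivulva class, which hold down lin-3 expression, 10 had a window summit and 6 a promoter summit, the largest share of the 5 lists. The promoter summits were at lin-54 (146, shared with rpl-12), lin-9 (76.5), lin-53 (61.2, shared with nra-2, with 125 elsewhere in its window), lin-15B (56.9), the Rb homologue gene lin-35 (46.5, shared with vps-51) and the E2F gene efl-1 (36.9, shared with fbxa-90). The window summits of the HP1 gene hpl-2 (183), lin-56 (51.9), dpl-1 (39.2) and lin-15A, which shares that of lin-15B, completed the list.

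**Figure D4:**
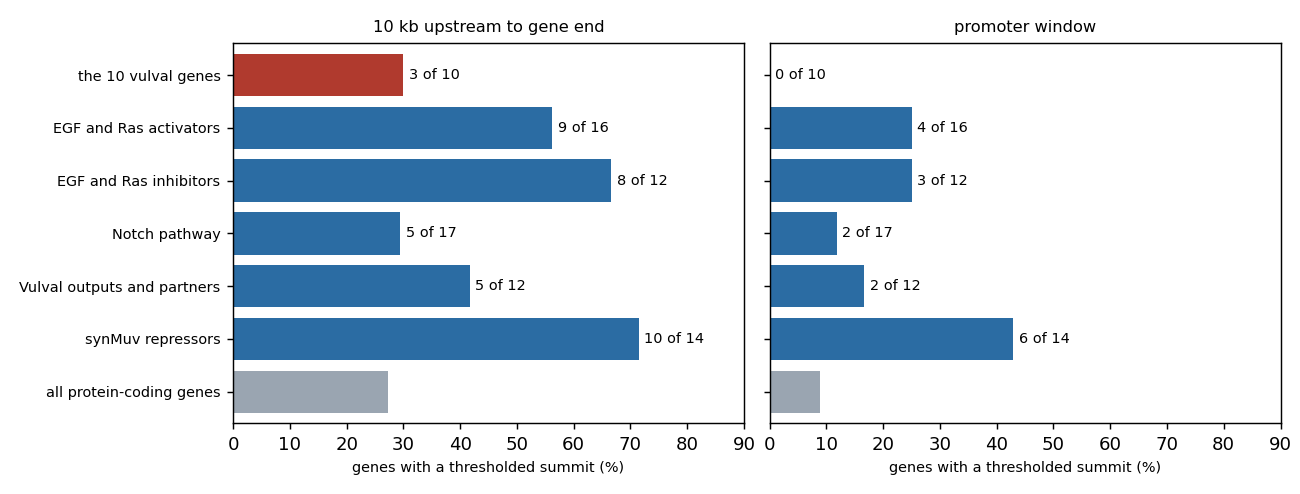
Share of genes (%) with a thresholded summit in the gene window (left) and in the promoter window (right), for the 10 vulval genes (red), 5 other pathway lists (blue) and all protein-coding genes (grey), with counts beside the bars. The 10 vulval genes sit at 3 of 10 and 0 of 10, beside 27.2% and 8.85% of all genes, and the synthetic multivulva repressors at 10 of 14 and 6 of 14.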

How the data were processed

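Deposited ChIP-seq peak lists of 2 replicates of 1 group were used. Per the deposited file descriptions, each replicate and the pool of both gave a relaxed list, called against a control library, and the thresholded list came from these 3. The control is not used here, and the aligner, caller, versions and threshold are not stated. Each peak's signal was deposited by the authors, on an unstated scale. The deposited −log10 q values, the same in all thresholded peaks, were not used. The summit offset deposited by the authors, a distance from the peak start, placed each summit. The ce10 lists and mitochondrial peaks were not used.

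Genes came from Ensembl release 115 on WBcel235, the assembly of ce11, and coordinates are 1-based. Promoter windows covered 1000 bp before to 200 bp after each transcript start. Summits within 100 bp counted as matched. With 1 group, no test was made. The members and the other pathway lists were chosen with earlier results of these data known. In those lists 2 names (mdt-23 and lst-3) found no gene. Named genes were all 10 members and, from each other list, every gene with a promoter summit and up to 4 more with the strongest window summit. The counting steps were tested on simulated data. Alternatives were other window reaches, match distances and words, nearest-start assignment, the stronger 1530 peaks and the 3060 strongest peaks of either replicate alone. Python 3.11.15, NumPy 2.4.6, pandas 2.3.3, SciPy 1.17.1 and matplotlib 3.10.9 were used.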

Additional observations from a re-analysis of the deposited data

How the results depend on the processing

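The count of genes with a summit in the window changed with its reach. With 5000 bp upstream, 1 gene (let-60) held 1 thresholded summit (19.2% of all genes held one), and with 2000 bp upstream the values were 1 and 1 (13.3%). Counting only summits whose nearest start was a vulval gene left 0 genes and 0 summits. With a promoter window of 2000 bp, 1 gene (let-60) had a promoter summit (12.1% of all genes). The stronger 1530 peaks left 2 genes and 4 summits (15.3% of all genes). With the strongest peaks of a single replicate in place of the thresholded list, 3 to 4 genes held 5 to 6 summits (26.7% and 26.9% of all genes), the count of genes with a promoter summit was 0 to 1 (8.49% and 8.59%) and that of genes with a nearest-start summit 0 to 1 (11.1% in both cases). The additional gene was sem-5, whose summit came from replicate 2 alone. The PRDM1 core was within 100 bp of 1 of the 5 summits, that in dpy-20. GAGAGA, a word chosen after seeing the data, was within 50 bp of 3 (29.7% of all thresholded summits). Matching within 50 bp, or among the strongest peaks of each replicate, kept 4 of the 5. For these matching settings and for the core within 100 bp, no share over all thresholded summits is given. Those counts are therefore not read as a result about these genes. Of the 71 other pathway genes, 22 held a summit with 2000 bp upstream (13.3% of all genes) and 24 with the stronger 1530 peaks (15.3%), in place of 37 (27.2%). No paired analysis was possible because there is 1 group. The depth of the libraries is unknown, so a missing peak in 1 replicate cannot be told apart from a lack of reads there.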
